A study of Mus musculus with 4 samples.

Results

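Krt7, Krt8, Krt18, Krt19 and Krt20 are the keratins of simple, single-layered epithelia, and they were followed here in isolated kidney glomeruli. They were chosen by gene name, after their levels in this same comparison had been seen, and all 5 had a row among 22809 genes. Poly(A) RNA had been sequenced from glomeruli, the filtering units of the kidney, of mice aged 3 weeks. The groups were 2 libraries of wild-type control mice, untreated, and 2 of mice labelled HDAC KO, called HDAC KO libraries here, with deletion restricted to podocytes, the cells that wrap the glomerular capillaries. The series' title names Hdac1 and Hdac2, a pair of histone deacetylases, as the deleted genes. Each library pooled 2 mice. The promoter that drives the deletion, the strain and the sex are not stated in the labels.

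Keratins are the intermediate filament proteins of epithelial cells. A filament needs 1 type I (acidic) and 1 type II (basic) partner, so the genes work in pairs. Krt8 (type II) and Krt18 (type I) are the usual pair of simple epithelia. Krt7 is a second type II partner found in ducts, Krt19 is a short type I keratin of ducts and of reactive epithelia, and Krt20 is a type I keratin best known from intestine and urothelium. In the kidney, collecting duct and parietal epithelial cells carry simple keratins, mature podocytes use vimentin instead, and injured tubule cells are known to gain keratins.

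Levels are TPM, reads per exon length, brought to 1 common total per library. Multiplied by exon length, the values were whole multiples of 1 read for 22176 genes, so reads could be given too. They numbered 15808117 and 12876939 in control replicates 1 and 2, and 17476365 and 20943138 in HDAC KO replicates 1 and 2. The target transcripts were not lower in whole glomeruli, so they do not check the labels. Hdac1 was at 18.9 ± 0.523 TPM in the controls versus 22.7 ± 0.349 TPM in the HDAC KO libraries (SD, n = 2 each), and Hdac2 at 22.2 ± 2.76 and 22.2 ± 1.87 TPM (limma adjusted p = 0.512 and 0.991). Podocyte genes were present (10 of 10 listed), yet tubular transcripts outweighed them. A list of 10 proximal tubule genes summed to 10892 and 7677 TPM in the controls versus 3304 and 4000 TPM in the HDAC KO libraries. For the 10 podocyte genes the sums were 370.4, 807.3, 140.5 and 329.4 TPM. In such bulk RNA, more cells of a type and more RNA per cell cannot be told apart.

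The genes sit in the keratin clusters of chromosomes 15 and 11 (GRCm38). Krt7 lies at chr15:101411043-101430313 on the plus strand. Krt8 (chr15:101996698-102004482, minus strand) and Krt18 (chr15:102028180-102032027, plus strand) are next to each other with 23697 bases between them, so that their starts face one another. Krt18 is thereby a type I gene inside the type II cluster. Krt20 (chr11:99428403-99438150) and Krt19 (chr11:100140810-100148665) lie in the type I cluster on the minus strand. Sequence before the start is shown for the head-to-head pair, whose levels ran alike across the libraries, and for Krt20, whose levels did not. It is from RefSeq's GRCm38.p6, 5′ to 3′ along each gene's strand, limited to bases outside GENCODE M21 exons.
Krt8 (chr15:102004483-102004592, minus strand): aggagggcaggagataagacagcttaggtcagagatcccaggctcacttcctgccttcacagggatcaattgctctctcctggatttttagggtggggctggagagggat
Krt18 (chr15:102027980-102028179, plus strand): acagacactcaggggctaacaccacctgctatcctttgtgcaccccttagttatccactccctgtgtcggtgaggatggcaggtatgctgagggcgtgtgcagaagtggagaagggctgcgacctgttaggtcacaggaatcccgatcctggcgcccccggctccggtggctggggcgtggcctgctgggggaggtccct
Krt20 (chr11:99438154-99438353, minus strand): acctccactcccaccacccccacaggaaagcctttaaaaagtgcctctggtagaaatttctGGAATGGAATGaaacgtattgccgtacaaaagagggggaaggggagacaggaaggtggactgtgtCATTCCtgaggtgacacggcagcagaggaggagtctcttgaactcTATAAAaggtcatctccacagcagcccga

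Capitals, present only in Krt20, mark matches to 6 short motifs, searched on both strands in windows of 300 bases, from 250 before the RefSeq start to 50 after it. A window was found for 4 of the 5 genes, Krt19 being the exception. The motifs were the TATA box (TATAAA), the CCAAT box (CCAAT), the GC box (GGGCGG), the AP-1 site (TGANTCA), the ETS site (CCGGAA) and the TEAD site (CATTCC). Krt20 held a TATA box from -29 to -24 and 3 TEAD matches, of which the pair from -139 to -134 and from -134 to -129 overlap by 1 base. Krt7 held 4 GC boxes and none of the other motifs. Its window lies inside the gene span given above, with chr15:101412401 at -2, so these GC boxes are not before the GENCODE start. Krt8 had a TATA box across its RefSeq start, from -1 to 5, with an overlapping match on the other strand, outside the stretch shown. The Krt8 stretch shown runs from -250 to -141, and the bases between it and the RefSeq start lie in a GENCODE exon. In Krt18 none of the 6 was found in the window. Among 32817 promoter windows, 13.6% held a TATA box, 35.6% a GC box, 14.7% a TEAD match, 37.4% a CCAAT box, 7.81% an AP-1 match and 14.9% an ETS match. These matches describe letters in a window and nothing more.

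In both HDAC KO libraries all 5 keratins exceeded both controls. Because this comparison served to choose them, the values below are a description and carry no test. Of 18612 genes tested across the table, 36.7% also had both HDAC KO values above both controls, and 14.3% had both below. On median-ratio scaling the count was 4 of 5, since Krt7 then stood at 53.6 and 42.5 in the controls against 85.8 and 49.8. Of all genes, 24.1% were above both controls on that scaling. The count was 5 of 5 with quantile normalization (25.3% of all genes) and with reads scaled to library totals (33.7%). The fold changes fell into 3 sizes, smallest in Krt7, intermediate in Krt8 and Krt18, and largest in Krt19 and Krt20.

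Krt8, the main type II partner, was at 57.3 TPM (750 reads) and 66.8 TPM (699 reads) in control replicates 1 and 2. In HDAC KO replicates 1 and 2 it was at 298.7 TPM (4187 reads) and 213.7 TPM (3500 reads). The HDAC KO libraries thus stood clear of the controls, the lower of them 3.20-fold above the higher control. The group means were 62.0 ± 6.73 and 256.2 ± 60.1 TPM (SD, n = 2 each). On the log2(TPM + 1) scale the difference was 2.01 (SE 0.22), given below as the log2 fold change. Part of the Krt8 transcript is not unique. Of its windows of 50 bases, 29.7% also occur in transcripts of Gm36026 or the pseudogene Krt8-ps, and Gm36026, on the opposite strand, shares 5.16% of its exon bases. The labels do not say how such reads were assigned.

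Krt18, which completes the Krt8 filament, had control levels of 41.0 and 45.7 TPM (394 and 351 reads). It was at 233.6 and 131.0 TPM in the HDAC KO libraries (2403 and 1575 reads). Again the groups did not overlap, and again replicate 1 was the higher of the HDAC KO libraries, by 1.78-fold against 1.40-fold for Krt8. The log2 fold change was 1.99 (SE 0.30), from 43.3 ± 3.32 to 182.3 ± 72.5 TPM (SD, n = 2 each). Only 0.720% of its 50-base windows were found in other annotated genes. The TPM ratio of Krt8 to Krt18 was 1.40 and 1.46 in the controls versus 1.28 and 1.63 in the HDAC KO libraries, so the control ratios lay between the other two.

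Krt7, the alternative type II partner, differed the least. Its control levels were 43.6 and 44.4 TPM (2056 and 1672 reads), against 89.4 and 56.3 TPM in the HDAC KO libraries (4510 and 3322 reads). The lower HDAC KO library was 1.27-fold above the higher control, and the HDAC KO libraries differed from each other by more than that (1.59-fold). Its log2 fold change of 0.68 (SE 0.25) became 0.35 without HDAC KO replicate 1 and 1.01 without replicate 2. The level of Krt7 against the others depends on its length. TPM used 7049 exon bases, while the principal coding transcript has 4094. On that shorter length Krt7 would be at 75.1 and 76.4 TPM in the controls, above Krt8 rather than below it, and at 153.9 and 97.0 TPM in the HDAC KO libraries, still below Krt8. This length was chosen after the values were seen.

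Krt19, the short type I keratin, was near the bottom of the measured range in the controls, at 2.01 TPM (25 reads; exact Poisson 95% interval 1.304 to 2.97) and 3.13 TPM (31 reads; 2.12 to 4.44). These intervals cover counting error only. In the HDAC KO libraries it was at 67.2 TPM (892 reads) and 26.9 TPM (417 reads). Even the lower of those was 8.60-fold above the higher control, although the 2 HDAC KO pools differed 2.499-fold. Its log2 fold change was 3.63 (SE 0.46), or 2.67 with a pseudocount of 5 and 4.27 without HDAC KO replicate 2. Against Krt18 in the same library, Krt19 stood at 0.0492 and 0.0684 in the controls against 0.288 and 0.205 in the HDAC KO libraries.

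Krt20 was the one member whose controls disagreed. Control replicate 1 had 0 reads (exact Poisson 95% interval up to 0.286 TPM). Control replicate 2 had 52 reads, or 5.05 TPM (exact Poisson 95% interval 3.77 to 6.62). The HDAC KO libraries were at 24.8 and 29.5 TPM (342 and 476 reads), with replicate 2 the higher, unlike the other 4 genes. Counting error does not span the gap between the controls, so the fold depends on which control is used. The log2 fold change was 3.51 (SE 0.82), but 2.21 without control replicate 1 and 4.81 without control replicate 2. It was 2.18 with a pseudocount of 5, 5.24 with a pseudocount of 0.1 and 6.08 by limma-voom on the reads, and its direction was the same in all of these. Neither Krt19 nor Krt20 shared a 50-base window with another annotated gene.

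**Figure D1:**
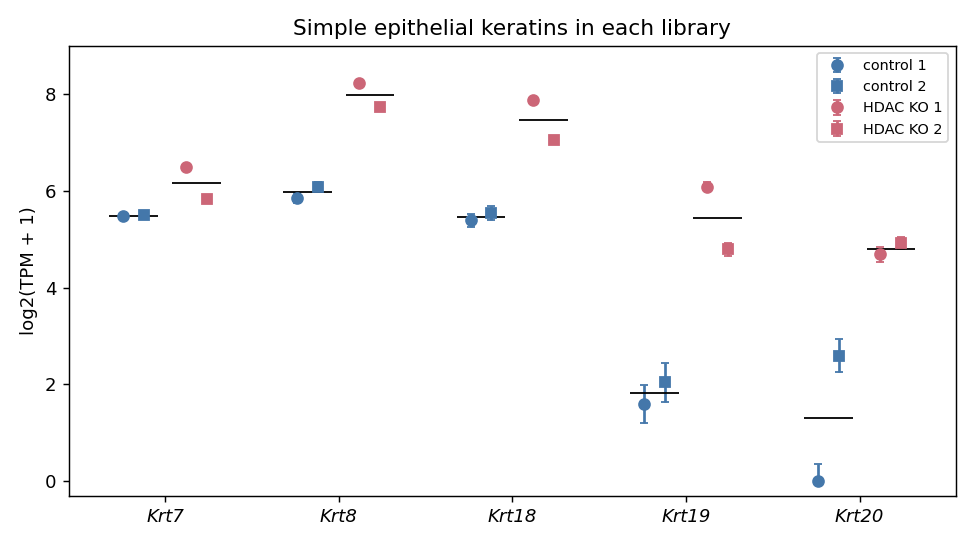
Level of each keratin gene in each library, as log2(TPM + 1), with exact Poisson 95% intervals for counting error (smaller than the symbol for the abundant genes) and a line at each group's mean. Both HDAC KO libraries lie above both controls for all 5 genes in TPM, with the narrowest gap in Krt7 (overlapping on median-ratio scaling) and the widest spread between controls in Krt20.

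Summed, the 5 genes were at 143.8 and 165.0 TPM in the controls, against 713.6 and 457.5 TPM in the HDAC KO libraries. The make-up of that sum differed too. Krt7 made up 30.3% and 26.9% of it in the controls versus 12.5% and 12.3% in the HDAC KO libraries. The share of Krt8 was 39.8% and 40.5% against 41.9% and 46.7%, and that of Krt18 28.5% and 27.7% against 32.7% and 28.6%. Krt19 made up 1.40% and 1.89% against 9.41% and 5.87%. With the principal length of Krt7, its own shares were 42.8% and 38.8% against 19.8% and 19.5%, and those of Krt8 32.7% and 33.9% against 38.4% and 42.9%, so that Krt7 rather than Krt8 was the largest part of the control sum. Type I transcripts (Krt18, Krt19 and Krt20) per type II transcript (Krt7 and Krt8) came to 0.426 and 0.485 in the controls versus 0.839 and 0.694 in the HDAC KO libraries. On the principal Krt7 length these ratios were 0.325, 0.376, 0.719 and 0.603, and the groups still did not overlap.

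**Figure D2:**
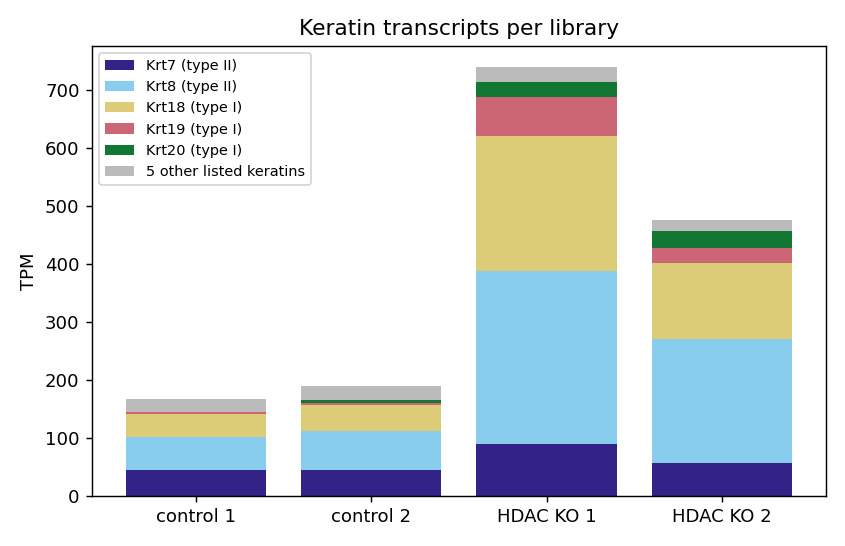
Stacked TPM of the 5 simple epithelial keratins and of the other 5 listed keratins in each library. The bars stand at 167.2 and 189.7 TPM in the controls and reach 739.6 and 476.7 TPM in the HDAC KO libraries, while the grey part stays between 19.1 and 26.0 TPM.

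The order of the levels per length was Krt8, then Krt7 and Krt18 together, then Krt19 and Krt20 in the controls. On the principal length of Krt7, that gene came first, ahead of Krt8. Krt7 (43.6 to 44.4 TPM) and Krt18 (41.0 to 45.7 TPM) overlapped there, as did Krt19 and Krt20. In the HDAC KO libraries the means ran Krt8, Krt18, Krt7, Krt19, Krt20. The ranges of Krt8 and Krt18 overlapped (213.7 to 298.7 and 131.0 to 233.6 TPM), as did Krt7 with Krt19 and Krt19 with Krt20. Krt18 lay above Krt7 in both libraries. On its principal length Krt7 was at 153.9 and 97.0 TPM there. Its range then overlapped that of Krt18 and no longer that of Krt19, though Krt18 was still above it in each library.

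None of the 4 other keratins tested had both HDAC KO values above both controls, beside 36.7% of all genes tested. Of 53 protein-coding keratin genes annotated on chromosomes 11 and 15, 10 are listed in the table, 5 on each chromosome, so only 5 besides the simple epithelial ones. Krt10, a type I keratin of differentiated epidermis, was at 6.36 and 6.81 TPM in the control libraries, with lower values in both HDAC KO libraries, at 3.70 and 3.73 TPM (-0.69 on the log2 scale, SE 0.25, limma adjusted p = 0.243). Krt23, another type I gene, was at 6.97, 7.77, 10.1 and 6.57 TPM in control and HDAC KO replicates 1 and 2 (0.13, SE 0.28, adjusted p = 0.850). Krt80, a type II gene, was at 9.35, 7.87, 9.44 and 6.43 TPM in that order (-0.12, SE 0.27, adjusted p = 0.859). Krt222, a keratin-like gene, was at 0.272, 1.48, 1.65 and 1.42 TPM. Krt87, at 0.394 and 0.739 TPM in the controls versus 1.17 and 0.997 TPM in the HDAC KO libraries, was too low to be tested. At these low levels both its HDAC KO values were above both controls. None of the 4 tested passed the threshold, and their median log2 fold change was 0.01 against 0.17 for all genes tested. That median changed sign in 6 of 13 other settings. The 5 simple epithelial genes made up 86.0% and 87.0% of all listed keratin TPM in the controls versus 96.5% and 96.0% in the HDAC KO libraries.

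Genes beside Krt8 and Krt18 were read as well. Of 20 protein-coding neighbours within 250 kb of the pair, 9 are keratins of stratified epithelia or hair and none of these is listed. All 10 listed neighbours lie on the Krt18 side. The 9 tested had log2 fold changes between -0.74 (Csad) and 1.16 (Itgb7), with a median of 0.23, and 0 passed the threshold, with the lowest adjusted p in Spryd3 (0.179 by limma). Eif4b, the nearest listed neighbour and a translation factor, was at 123.8 and 139.5 TPM in the controls versus 170.9 and 197.3 TPM in the HDAC KO libraries.

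Genes that work with keratins were read from 7 lists. Of 67 tested genes on them, 0 passed the adjusted threshold by limma. Across all 18612 genes, 0% were called higher and 0.00537% lower. Without adjustment, at p under 0.05, 28 of the 67 were higher and 1 lower, beside 13.4% and 4.46% of all genes. Over all genes that is 2497 higher and 831 lower, or 1775 and 1338 with median-ratio scaling, which moves the median of all genes from 0.17 to -0.03. Limma-voom, which could be run on 63 of the 67, called 0 of those. The outcome rested on control replicate 2. Without it 14 of the 67 were called (13 higher and 1 lower), but so were 8.37% of all genes higher and 2.80% lower.

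Hemidesmosomes, where keratin filaments are tied to the basement membrane, had a median of 0.79 over 9 tested genes against 0.17 for all genes. Plec, the plectin that links filaments to the plaque, was at 38.1 and 44.0 TPM in the controls versus 90.5 and 93.0 TPM in the HDAC KO libraries (1.15 on the log2 scale, SE 0.16, limma adjusted p = 0.0988). Lamb3, a chain of the laminin beneath hemidesmosomes, was at 0.701, 1.07, 5.11 and 5.06 TPM in control and HDAC KO replicates 1 and 2. Col17a1, the transmembrane collagen of the plaque, was at 0.224, 2.30, 8.27 and 9.75 TPM. Its controls lay further apart than the HDAC KO pair in fold. Lama3, another chain of that laminin, named after its values were seen, was at 45.9 and 48.0 TPM in the controls, against 32.89 and 37.97 TPM (-0.40, SE 0.16, adjusted p = 0.294). In all, 7 of the 9 had both HDAC KO values above both controls and 1 below, beside 36.7% and 14.3% of all genes tested. Without control replicate 2, Plec, Lamb3 and Col17a1 were called.

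Linkers that bind keratins in the cytoplasm had a median of 0.53 over 9 tested genes, and 0.20 without control replicate 1. It was also lower with median-ratio scaling (0.30) and quantile normalization (0.33), which lowered the median of all genes too. Relative to all genes, the linker median was 0.36, and 0.33 and 0.36 with those scalings. Without control replicate 1 that relative value was 0.16. Ppl, which encodes periplakin, was at 3.95 and 6.65 TPM in the controls versus 17.3 and 17.3 TPM in the HDAC KO libraries (1.57, SE 0.28, adjusted p = 0.106). Eppk1, for epiplakin, which binds keratin bundles, was at 0.558, 1.27, 4.17 and 3.57 TPM (adjusted p = 0.140). Fam83h, which organizes keratin filaments, was at 16.9, 16.3, 25.8 and 28.9 TPM (adjusted p = 0.147), and Ktn1 at 14.1, 22.8, 26.6 and 26.0 TPM (adjusted p = 0.368). The remaining 5 tested linkers had log2 fold changes between 0.06 and 0.56.

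Desmosomes, which join keratin networks of adjacent cells, had a median of 0.39 over 8 tested genes, and 0.16 with median-ratio scaling. Relative to the median of all genes these were 0.22 and 0.19, and 0.05 without control replicate 2. Dsg2, the desmoglein of simple epithelia, was at 6.38 and 6.20 TPM in the controls versus 15.96 and 10.98 TPM in the HDAC KO libraries (0.97, SE 0.26, adjusted p = 0.157). Dsp, for desmoplakin, which anchors the filaments, was at 37.7, 34.2, 67.7 and 49.2 TPM (adjusted p = 0.195). The plakophilin genes Pkp2 and Pkp3 had log2 fold changes of 0.55 (SE 0.19, adjusted p = 0.225) and 0.44 (SE 0.20, adjusted p = 0.329). None of the desmosome genes was called without control replicate 2.

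Other intermediate filament genes had a median of 0.40 over 10 tested genes, and the value moved with each library. It was 0.04 without control replicate 1, 0.96 without control replicate 2, 0.91 without HDAC KO replicate 1 and 0.15 without HDAC KO replicate 2. Vim, which encodes the vimentin of mesenchymal cells, podocytes and injured tubules, was at 9.26 and 33.4 TPM in the controls versus 47.0 and 96.3 TPM in the HDAC KO libraries (1.86, SE 0.63, adjusted p = 0.223). Replicate 2 was the higher in both groups for Vim, as for Krt20, whereas for Krt8 and Krt18 it was so only in the controls. The nuclear lamin genes Lmna and Lmnb1 were at 18.8, 22.9, 39.9 and 48.1 TPM and at 7.42, 10.5, 20.6 and 21.96 TPM (adjusted p = 0.108 and 0.110). Sync, for the muscle filament protein syncoilin, was at 0.836, 0.980, 2.93 and 3.01 TPM (adjusted p = 0.166).

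Genes shared by many simple epithelia had a median of 0.63 over 16 tested genes, and 0.37 without HDAC KO replicate 1. Marveld2, for tricellulin, was at 13.5, 10.9, 25.9 and 24.4 TPM (0.99, SE 0.20, adjusted p = 0.110). St14, for the membrane protease matriptase, was at 28.3, 26.9, 70.1 and 47.2 TPM (adjusted p = 0.124). Its inhibitor gene Spint2 was at 108.4, 81.2, 183.0 and 148.8 TPM (adjusted p = 0.154), and Epcam, a surface protein of collecting duct and other epithelia, at 100.03, 85.4, 216.2 and 137.4 TPM (adjusted p = 0.175). Prss8, for prostasin, named after its values were seen, had a negative log2 fold change (-0.55, SE 0.28, adjusted p = 0.378).

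Transcription factors of epithelia had a median of 0.47 over 11 tested genes. Without HDAC KO replicate 1 it was 0.18, below the 0.22 of all genes in that setting. Elf3, an ETS factor of epithelia, was at 18.1 and 26.2 TPM in the controls versus 90.4 and 61.6 TPM in the HDAC KO libraries (1.73, SE 0.27, adjusted p = 0.104). Klf5 and Klf4, Krüppel-like factors of epithelial cells, were at 0.747, 1.44, 7.25 and 4.94 TPM and at 7.16, 17.4, 25.8 and 27.1 TPM (adjusted p = 0.110 and 0.225). A further 7 tested factors had log2 fold changes between 0.07 and 0.53.

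**Figure D3:**
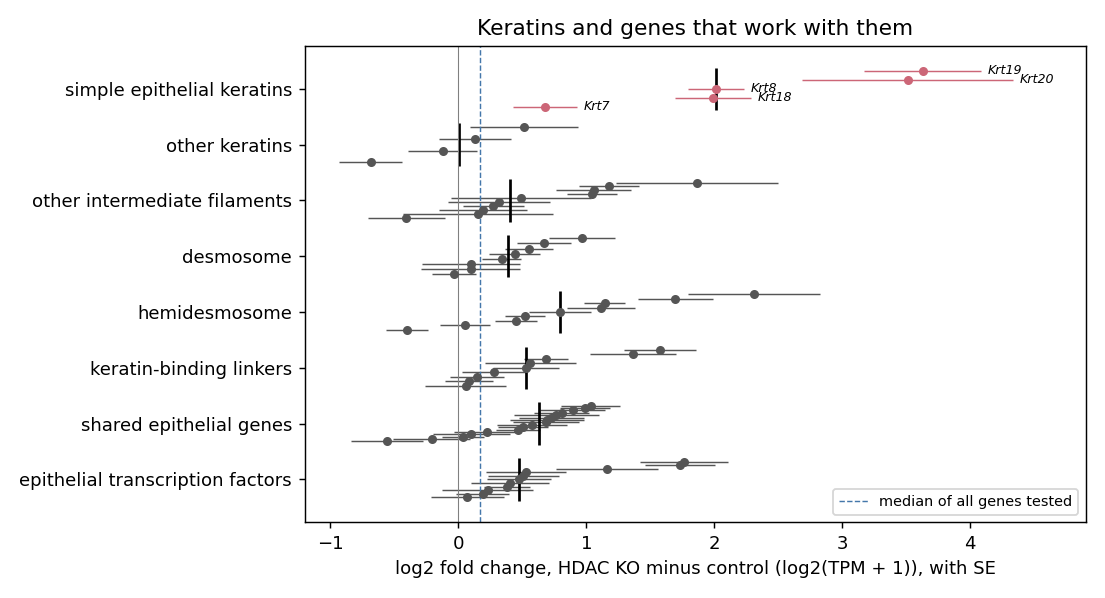
Log2 fold change (HDAC KO minus control, on log2(TPM + 1), bars show SE) of the 5 simple epithelial keratins and of the tested genes of each list, with a black line at each list's median and a dashed line at the median of all genes tested, 0.17. Krt8, Krt18, Krt19 and Krt20 lie at 1.99 to 3.63, beyond most genes of the 7 lists. The keratins were chosen with this contrast known. None of the listed genes passed the adjusted threshold, and 0 of all 18612 genes tested were called higher.

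Marker lists of the cells that could carry these keratins were summed in each library. Parietal epithelial genes came to 324.2 and 438.5 TPM in the controls versus 912.8 and 780.7 TPM in the HDAC KO libraries. Of them 10 of 10 were above both controls, beside 36.7% of all genes tested (24.1% with median-ratio scaling). Cd24a and Prom1, the most abundant by mean over the 4 libraries, as for the lists below, were at 111.4, 161.4, 414.3 and 269.2 TPM and at 51.8, 80.0, 87.5 and 85.5 TPM. Scin and Lad1, named after their values were seen, were above Prom1 in both HDAC KO libraries, at 34.4, 40.5, 112.3 and 97.0 TPM and at 52.5, 45.9, 97.6 and 102.7 TPM. Injured tubule genes went from 1235 and 4662 TPM to 32266 and 22643 TPM, with 6 of 6 above both controls. Spp1 held most of that sum, at 1001, 4293, 28478 and 20424 TPM, with Clu next at 217.4, 245.2, 2681 and 1259 TPM. None of these genes passed the adjusted threshold (lowest adjusted p = 0.0928 by limma). Their part in the keratin values was not tested.

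Collecting duct genes, of a segment where Krt7, Krt8, Krt18 and Krt19 are normally found, showed no such split. Their sum was 2553 and 1646 TPM in the controls versus 2238 and 1540 TPM in the HDAC KO libraries, and their median log2 fold change was -0.03 over 9 tested genes. Hsd11b2 and Aqp2, the most abundant, were at 698.9, 432.6, 512.4 and 291.0 TPM and at 682.3, 373.7, 493.3 and 499.2 TPM. In replicate 1 of each group the list was higher than in replicate 2.

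For urothelium, where Krt20 marks umbrella cells, the uroplakin genes of the list were near 0. Upk1a was at 0.631 to 1.51 TPM and Upk1b at 0.0715 to 0.401 TPM, and Upk2, Upk3a, Krt5 and Gsdmc had no row among the genes analysed here. The sum of the list went from 4.55 and 15.6 TPM to 74.7 and 65.1 TPM, carried by Sprr1a (0.371, 9.05, 52.9 and 49.5 TPM) and Psca (3.48, 5.002, 20.8 and 13.6 TPM). For mesothelium, Msln was at 0.0488 to 0.741 TPM, while Gpm6a held most of the sum and was lower in the HDAC KO libraries (35.2, 22.2, 12.3 and 13.1 TPM). Thin limb genes summed to 45.7, 76.0, 86.9 and 81.5 TPM, with Cryab the most abundant at 29.3, 43.2, 68.9 and 58.0 TPM.

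Proximal tubule genes were lower in both HDAC KO libraries in 10 of 10 cases, among them the phosphate transporter gene Slc34a1 (3666, 2077, 914.2 and 1128 TPM). The podocyte sum was lower in both as well, with 3 of its 10 genes below both controls and the rest overlapping. Of all genes tested, 14.3% were below both controls, or 25.5% with median-ratio scaling. Podxl, the most abundant, was at 159.8, 355.3, 63.0 and 170.9 TPM. Endothelial genes summed to 251.6, 568.0, 189.4 and 394.4 TPM, with Kdr at 53.7, 121.6, 39.8 and 83.6 TPM and Ehd3 at 63.4, 148.6, 34.7 and 76.6 TPM. Mesangial and smooth muscle genes summed to 111.5, 167.5, 129.2 and 187.7 TPM, with Gata3 at 32.5, 40.1, 41.4 and 35.2 TPM and Acta2 at 31.6, 26.3, 26.9 and 35.8 TPM. Immune genes summed to 37.1, 91.9, 404.0 and 469.6 TPM, with Lyz2 at 13.2, 50.5, 236.9 and 275 TPM and C1qa at 10.1, 17.4, 97.8 and 112.9 TPM. The podocyte, endothelial, mesangial and immune sums were thus higher in replicate 2 of each group, as Krt20 was. Krt7, Krt8, Krt18 and Krt19 were higher in replicate 2 among the controls but in replicate 1 among the HDAC KO libraries. Any link between these sums and the keratins was not tested. Gata3 is also on the collecting duct list.

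**Figure D4:**
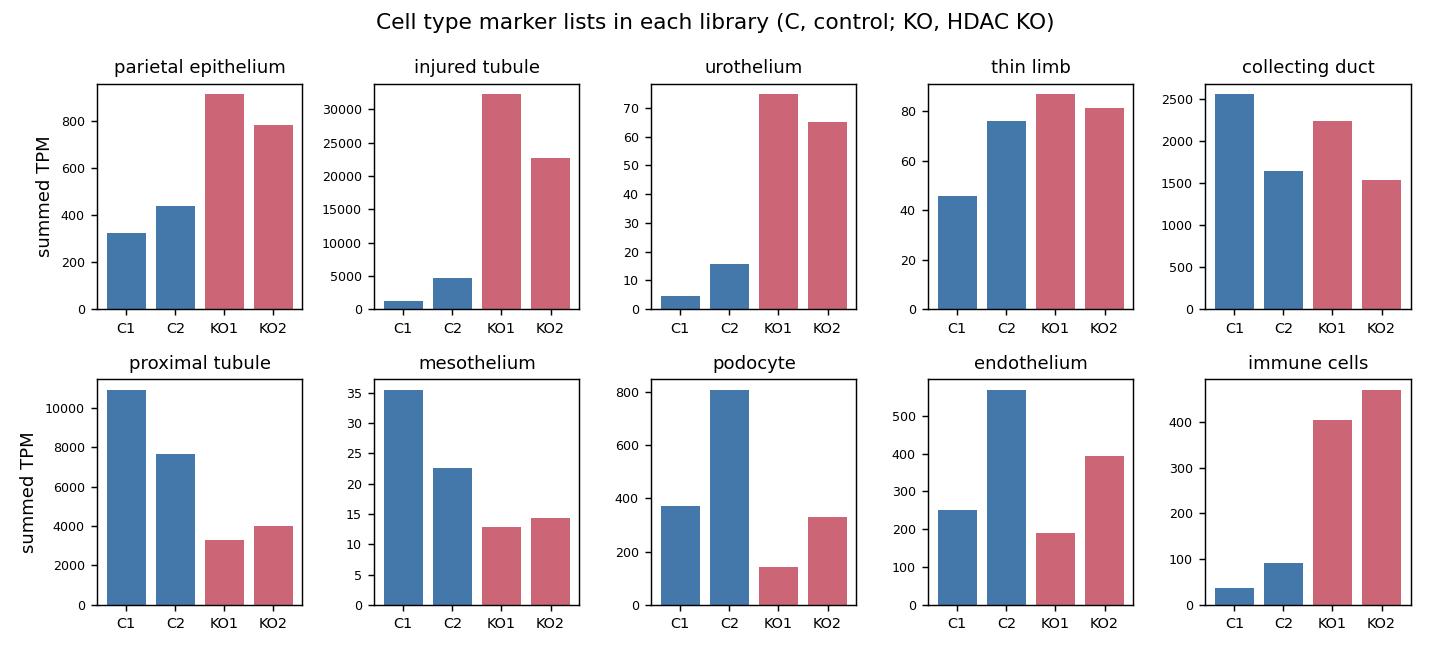
Summed TPM of 10 cell type marker lists in each library, with a separate linear axis from 0 for each list. Parietal, injured tubule, urothelium, thin limb and immune sums are higher in both HDAC KO libraries, proximal tubule, mesothelium and podocyte sums lower, and collecting duct and endothelium sums overlap between the groups.

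Likeness was measured as the Euclidean distance between log2(TPM + 1) profiles over the 4 libraries, each centred on its own mean, among 7515 named protein-coding genes with a mean of at least 10 TPM. Krt18 was the 4th nearest of 7514 genes to Krt8, and Krt8 the 4th nearest to Krt18 (distance 0.25 log2 units). The other members were less alike. The nearest member to Krt19 was Krt18 (distance 1.68), with 62 other genes nearer, and the nearest to Krt20 was Krt19 (1.87), with 124 nearer. The nearest member to Krt7 was Krt18 at 1.32, with 6502 genes nearer.

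The 5 genes nearest to the mean profile of Krt8 and Krt18 were Pigr, Plp2, Mt2, Muc1 and Sdc1. Pigr, the receptor that carries immunoglobulin A across epithelia, was at 76.0, 81.6, 401.1 and 263.4 TPM in control and HDAC KO replicates 1 and 2, a distance of 0.07. Plp2, a membrane proteolipid gene, was at 13.1, 14.4, 66.1 and 48.9 TPM (0.17), and the metallothionein gene Mt2 at 8.39, 10.8, 51.5 and 36.8 TPM (0.18). Muc1, an epithelial surface mucin, was at 26.0, 29.9, 135.5 and 73.3 TPM, and Sdc1, the epithelial syndecan, at 9.73, 9.38, 44.9 and 28.7 TPM.

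Around the other members, named after their values were seen, the nearest genes differed. Krt20 was nearest to Cd44 (0.441, 9.66, 36.8 and 46.9 TPM, a distance of 0.23), the hyaluronan receptor of activated parietal and injured tubule cells, followed by Gbp2, Ccl5, Sprr1a and Cxcl10. All 5 were higher in control replicate 2 than in control replicate 1, as Krt20 was. Krt19 was nearest to Clu (217.4, 245.2, 2681 and 1259 TPM), though at a distance of 0.69, and Krt7 to Blnk (0.13) and Cxadr (0.13), with the desmoplakin gene Dsp 4th. With 4 libraries and a shared contrast, such distances only describe these samples.

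**Figure D5:**
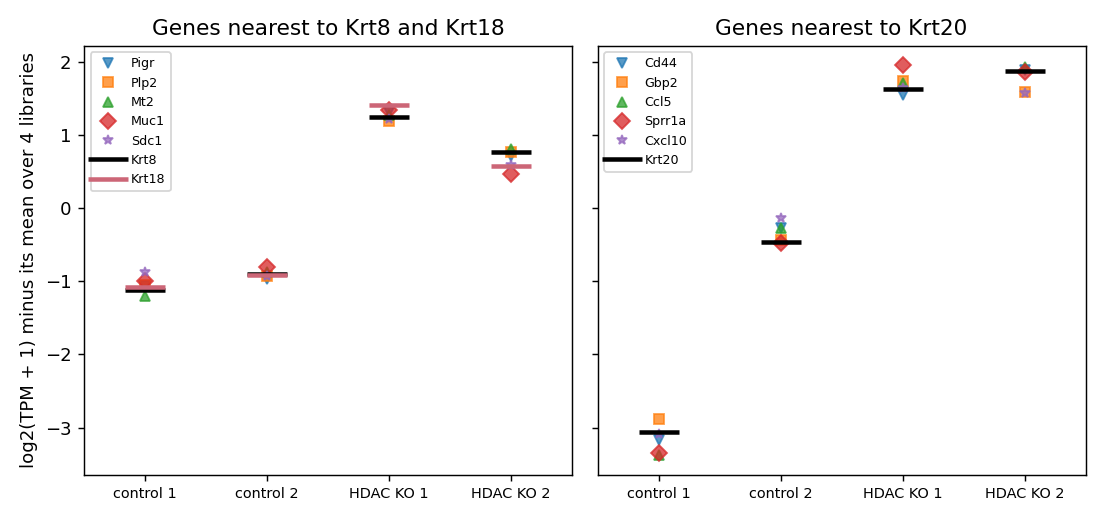
Centred log2(TPM + 1) of Krt8 and Krt18 (left) and Krt20 (right) in each library, drawn as horizontal dashes, with the 5 nearest genes as symbols. Krt8 and Krt18 have like values in the 2 controls and peak in HDAC KO replicate 1, whereas Krt20 separates the controls and is about level in the HDAC KO libraries.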

How the data were processed

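Poly(A) RNA of pooled mouse glomeruli was sequenced in 4 libraries, 2 per group. The authors deposited 1 table of TPM values, which sum to 1000000 in each library. Per the submitters' processing notes the build was GRCm38.p6, and the tools listed, without roles, were DESeq2 1.30.1, featureCounts 2.0.0, STAR 2.7.9 and fastp 0.20. The gene annotation, strand setting and gene filter are not stated there or in the labels. Symbols were matched for 22762 genes. Whole reads were recovered with GENCODE M21 exon lengths for 22176 genes (97.2%, relative tolerance 1e-06), each with at least 6 reads in 1 library.

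All genes with a mean of at least 1 TPM (18612; 4197 left out) were fitted with limma 3.58.1 in R 4.3.3 (lmFit, eBayes with trend) on log2(TPM + 1), with no covariate and Benjamini-Hochberg adjustment over all of them at 0.05. Adjusted p values are from that fit, which has 2 residual degrees of freedom. Log2 fold changes understate low genes. With 2 libraries per group, exact permutation reaches p = 0.333 (two-sided) at best, so none was run. Each library is a separate pool of mice, and no batch is labelled; the design text's 2 independent experiments are not tied to libraries.

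The members and lists were chosen with earlier results of these data known. Named genes were the 5 keratins, Hdac1 and Hdac2, other keratins with a mean of at least 1 TPM, up to 4 genes per list by p (2 per cell type list by level) and the 5 nearest profiles; others are said to be named after their values were seen, or complete a list. A few genes under this rule are not reported here. The alternatives were other pseudocounts, filters, scalings, variance models, a replicate block, limma-voom on the reads and each library left out. Python 3.11.15, numpy 2.4.6, pandas 2.3.3, scipy 1.17.1 and matplotlib 3.10.9 were used.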

Additional observations from a re-analysis of the deposited data

How the results depend on the processing

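All 5 keratins kept a positive log2 fold change in each of 13 alternatives, from 0.35 to 1.01 for Krt7, 1.77 to 2.25 for Krt8, 1.58 to 2.41 for Krt18, 2.67 to 4.27 for Krt19 and 2.18 to 6.08 for Krt20. The median over the 5 was 2.01 and ran from 1.77 to 2.41 when 1 library was left out. The count of genes called lower was 1, and 0 with quantile normalization, limma without trend or limma-voom on the reads; leaving out 1 library gave 0 to 522 lower and 0 to 1558 higher, and 0 to 14 genes of the keratin partner lists, the upper ends being without control replicate 2. The lone library of a group is then assumed to vary like the other group. The median of the other keratins was -0.12 with a mean of at least 5 TPM, -0.20 with median-ratio scaling, -0.20 with quantile normalization, -0.069 by limma-voom, -0.02 without control replicate 2 and from -0.25 to 0.27 when 1 HDAC KO library was left out; the cause was not tested. Relative to all genes, the epithelial transcription factor list reached -0.04 without HDAC KO replicate 1 and the other intermediate filament list -0.00146 without control replicate 1. With the replicate block, 0 genes were called higher and 1 lower, and the partner lists stayed at 0. Deviations of same-numbered libraries correlated at 0.14 across genes, and the labels do not say what the number marks. Depth limits Krt19 and Krt20 in the controls, at 0 to 52 reads.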
